A study of Mus musculus with 12 samples.

Results

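The p53 pathway genes described here are Trp53, which encodes p53, its inhibitor Mdm2, and the targets Cdkn1a, Gadd45a, Ccng1, Bax, Bbc3, Zmat3, Perp and Phlda3. They were chosen by gene symbol, with earlier results of these data known, and all 10 were found among the 23354 genes shared by the 12 libraries. mRNA was measured in stable lines of mouse J1 embryonic stem cells, with 2 libraries for each of 6 groups. Every group was grown on inactivated fibroblast feeder cells in serum with leukemia inhibitory factor. The first arm overexpressed a histone H3.1, either the wild-type protein (H3.1WT), which served as control, or the mutants H3.1K9M and H3.1K36M, where methionine replaces lysine 9 or lysine 36. The other arm carried a short hairpin against Suv39h1 (shSuv39h1) or Suv39h2 (shSuv39h2), or the hairpin shNC, taken from its name as the control. The vectors, their promoters and whether a line was a clone or a pool are details not given in the sources used here. The sources also leave unsaid whether the paired libraries of a group are separate cultures, and p-values therefore reflect only how far the libraries of a group lie apart, which may be technical. By its title the series asks how H3K36me3 bears on single nucleotide variation, and the comparisons here ask how transcripts of a DNA damage pathway differed between the groups.

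p53 is a transcription factor that is held low by Mdm2, a ubiquitin ligase whose own gene p53 switches on. DNA damage and other stress free p53, which then raises genes that stop the cell cycle, aid repair or start cell death. Gadd45a is a classical target with a p53 site in an intron, and stress can also raise it without p53. Methionine at lysine 9 or lysine 36 of H3 is known to lower methylation of that residue, and Suv39h1 and Suv39h2 are methyltransferases for lysine 9 in heterochromatin.

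The sequences before the starts of Gadd45a and Cdkn1a are shown because the former gave every call among the 10 genes, while the latter is the best-known p53 target. Both come from RefSeq on GRCm38.p6, the assembly that mm10 names, and run 5′ to 3′ over the 250 bases up to the start. Gadd45a lies on the minus strand at chr6:67035096-67037407, and the window is chr6:67037408-67037657. Capitals mark, in order, a GC box, an octamer, a CCAAT box, an inverted octamer and a p53 half-site. Cdkn1a lies on the plus strand at chr17:29090979-29100722, and the window before its upstream start is chr17:29090729-29090978. Capitals mark a pair of stretches that match the p53 half-site consensus at every letter. A stretch that misses it by a single letter was left in lower case, so the capitals need not mark the site that p53 binds.
Gadd45a: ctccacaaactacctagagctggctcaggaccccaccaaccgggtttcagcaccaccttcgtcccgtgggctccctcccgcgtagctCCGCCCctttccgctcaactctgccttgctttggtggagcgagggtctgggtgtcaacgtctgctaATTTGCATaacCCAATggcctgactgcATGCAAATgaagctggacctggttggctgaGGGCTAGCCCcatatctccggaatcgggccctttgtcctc
Cdkn1a: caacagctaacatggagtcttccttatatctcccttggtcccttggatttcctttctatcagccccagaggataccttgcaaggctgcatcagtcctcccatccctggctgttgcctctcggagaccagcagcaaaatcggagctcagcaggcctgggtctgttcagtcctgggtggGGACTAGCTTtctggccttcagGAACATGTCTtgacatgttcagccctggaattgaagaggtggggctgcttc
Motifs were searched on both strands in windows that also take in 50 bases after the start, and matches are a description of the letters, not of binding. RefSeq windows matched 8 of the 10 genes, with 11 windows in all, and the other two genes are Zmat3 and Perp. A p53 half-site, by its consensus, was found in 8.36% of 32851 windows of this length and in windows of 6 of the 8 matched genes: Trp53, Mdm2, Cdkn1a, Gadd45a, Ccng1 and Bax. A pair of half-sites with at most 13 bases between them was found in 24 windows, or 0.0731%, and among the matched genes in that of Cdkn1a. The half-site of Gadd45a lies at bases -40 to -31 from the start, and those of Cdkn1a at -73 to -64 and -51 to -42. The octamer (ATTTGCAT), found in 1.74% of windows, occurs in that of Gadd45a at -97 to -90 and -70 to -63 and in no window of the other matched genes. The GC box (GGGCGG) was found in 35.7% of windows, the CCAAT box in 37.4%, the TATA box (TATAAA) in 13.6% and the E-box (CACGTG) in 7.15%. No window of the matched genes held the AP-1 (TGACTCA), CRE (TGACGTCA) or CARE (TTGCATCA) letters, which were found in 5.2%, 1.79% and 0.895% of windows.

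The deposited values are FPKM, fragments scaled by transcript length and by library, so levels can be set beside each other between genes. Between 12126 and 12518 genes per library reached 1 FPKM, and from steps in the low values a 2 kb transcript at 1 FPKM held about 42.4 to 57.4 fragments. The 8 markers of embryonic stem cells were at 78.8 FPKM or more in every library, with the lowest mean in H3.1K9M replicate 1. The hairpin targets were lower than in shNC, with Suv39h1 at 4.91 and 5.10 FPKM in shSuv39h1 against 8.58 and 7.52 and Suv39h2 at 1.61 and 1.76 in shSuv39h2 against 4.80 and 4.78. Limma called the latter (adjusted p = 0.000304) and not the former (0.0877), and Suv39h1 was also lower in H3.1K36M than in H3.1WT, at 6.92 and 7.58 FPKM against 10.3 and 12.2 (0.0163). Fibroblast feeder markers were read in every library, and whether their RNA came from feeder cells or from the embryonic stem cell lines was not tested. The 30 feeder markers summed to 845.5 and 1372 FPKM in H3.1WT, 2410 and 1338 in H3.1K9M and 1813 and 1766 in H3.1K36M. In the hairpin arm they summed to 1011 and 1303 in shNC, 1035 and 723 in shSuv39h1 and 1337 and 1064.5 in shSuv39h2. H3.1K9M replicate 1 was the highest, and a marker was listed at 0 in H3.1WT replicate 1 and another in shSuv39h1 replicate 1, with none at 0 in the other 10 libraries. In bulk RNA, fewer cells of a type and less RNA per cell cannot be told apart.

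All 10 genes exceeded 1 FPKM in all 12 libraries. Their mean levels stood between the 62.3rd percentile of the 13109 tested genes for Zmat3 and the 97.5th for Bax, so that the pathway was transcribed in every group, the controls included. Gadd45a and Bbc3 varied most over the 12 libraries, with SDs on the log2 scale at the 92.5th and the 92nd percentile of tested genes, and Bax varied least, at the 20.3rd.

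**Figure D1:**
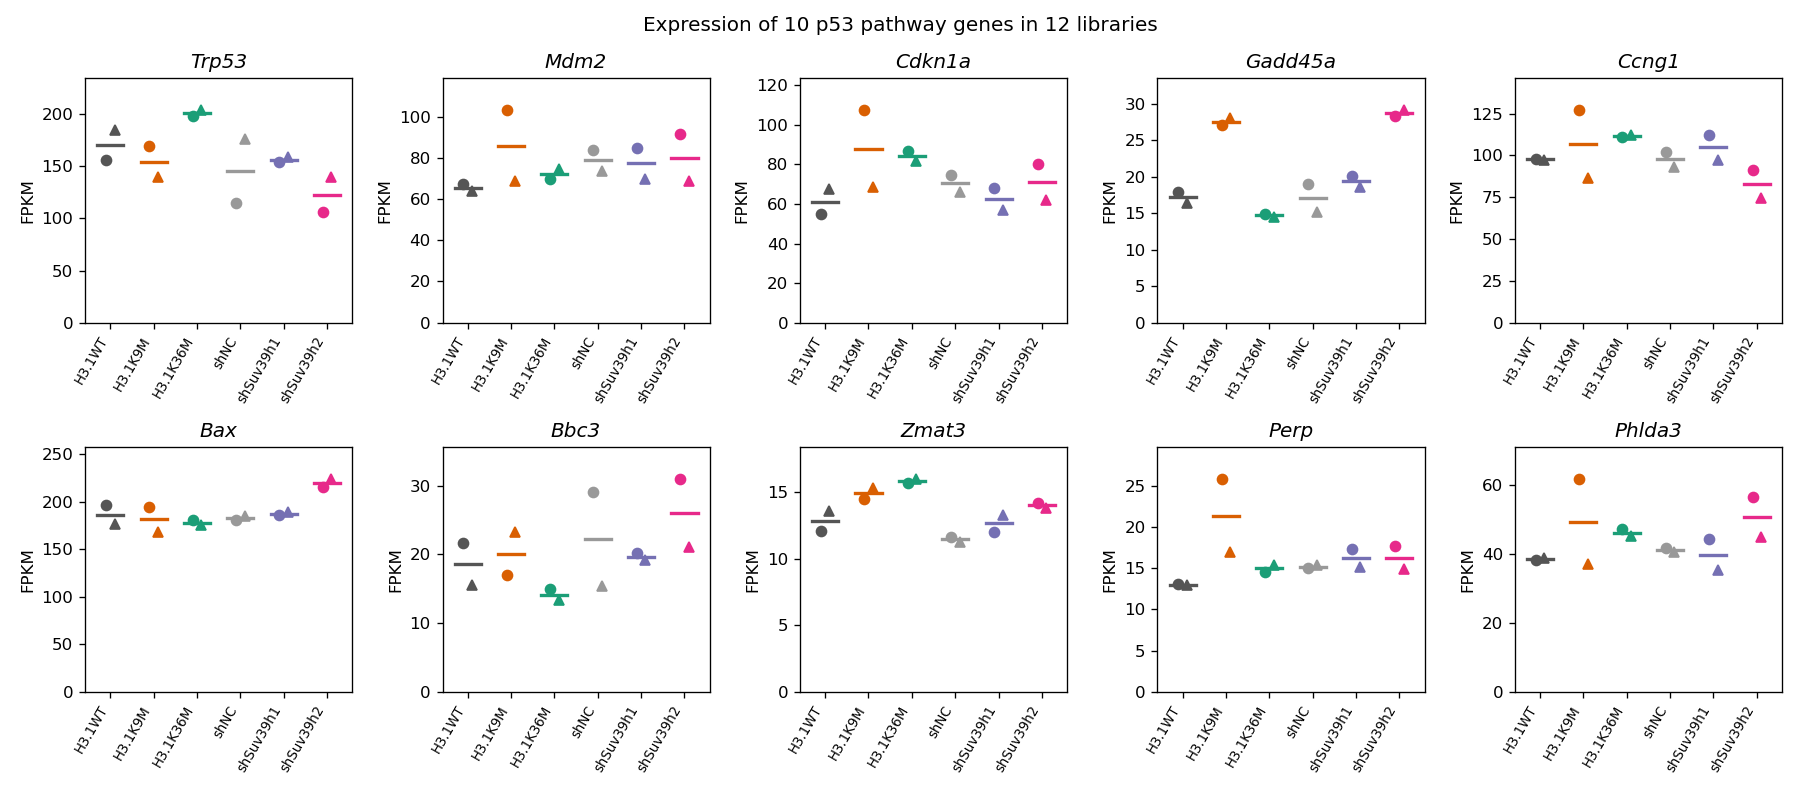
FPKM of the 10 p53 pathway genes in each of the 12 libraries, with the groups along the horizontal axis, a point for each library and a bar for the mean of a group. Gadd45a is at 27.1 to 29.1 FPKM in all 4 libraries of H3.1K9M and shSuv39h2 and at 20.2 or less in the other 8.

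Gadd45a, which encodes a small stress protein that binds Pcna and Cdk1 and activates the kinase Map3k4, was highest in H3.1K9M and shSuv39h2. It was at 18.0 and 16.5 FPKM in H3.1WT, 27.1 and 28.0 in H3.1K9M and 14.96 and 14.5 in H3.1K36M. In the hairpin arm it was at 19.0 and 15.1 in shNC, 20.2 and 18.7 in shSuv39h1 and 28.4 and 29.1 in shSuv39h2. The 4 libraries of H3.1K9M and shSuv39h2 were above the other 8, and both H3.1K36M libraries were below the other 10. This split was read from the values. Here and below, the share of all genes that set libraries apart from all others in this way was not counted. In order, the means were 28.8 ± 0.512 in shSuv39h2, 27.6 ± 0.633 in H3.1K9M, 19.4 ± 1.05 in shSuv39h1, 17.2 ± 1.05 in H3.1WT, 17.1 ± 2.73 in shNC and 14.7 ± 0.352 in H3.1K36M (SD, n = 2 each). The control lines H3.1WT and shNC overlapped, as did shNC and shSuv39h1.

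Against its own control, Gadd45a rose 1.60-fold in H3.1K9M, by 0.65 ± 0.104 (SE) on the log2(FPKM + 1) scale, with a 95% interval of 0.42 to 0.88 and an adjusted p of 0.0365 by limma over all tested genes. It passed under 7 of 21 alternatives, with a log2 difference of 0.59 to 0.74 and an adjusted p of 0.018 to 0.265. The adjusted p was 0.265 and 0.256 without H3.1WT replicate 1 and 2, 0.106 without H3.1K9M replicate 1, 0.0967 without either H3.1K36M library, 0.0836 and 0.0837 without shSuv39h1 replicate 1 and 2, and 0.0803 and 0.0805 without shSuv39h2 replicate 1 and 2. Adding the mean of the feeder markers as a covariate, the log2 difference was 0.74 and the adjusted p 0.0506. In shSuv39h2 the gene rose 1.68-fold, by 0.73 ± 0.104 on the log2 scale (95% interval 0.49 to 0.96, limma adjusted p = 0.00363). It passed under all 21 alternatives tried, with a log2 difference of 0.57 to 0.88 and an adjusted p of 0.0015 to 0.0315.

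In shSuv39h1 the log2 difference was 0.18 (95% interval -0.05 to 0.42), and the limma adjusted p was 0.604. It was 0.34 without shNC replicate 1 and 0.03 without shNC replicate 2, and passed under 0 of 21 alternatives. Set directly against shSuv39h2, shSuv39h1 gave a log2 difference of -0.55 (limma adjusted p = 0.018). That difference passed under 16 of 21 alternatives, with a range of -0.60 to -0.49, and was lost in a fit on the hairpin arm alone (adjusted p = 0.0665) and without shSuv39h1 replicate 1 or 2 (0.0943 and 0.15) or shSuv39h2 replicate 1 or 2 (0.105 and 0.104). H3.1K36M was at -0.21 against H3.1WT, which did not pass (limma adjusted p = 0.283). Against H3.1K9M it was at -0.86, or 1.87-fold lower, with a limma adjusted p of 0.0012, and this passed under all 21 alternatives at -0.92 to -0.84. The 2 mutant histones share the H3.1WT control and the 2 hairpins share shNC.

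**Figure D2:**
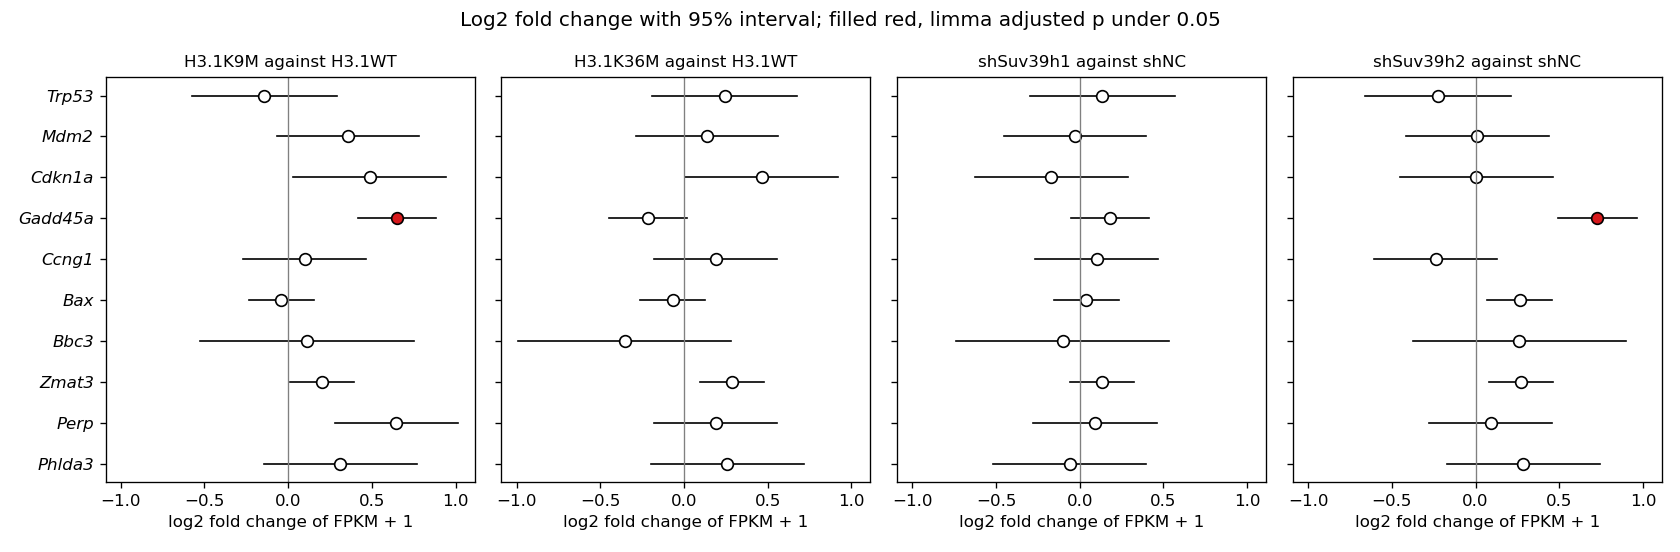
Log2 difference of FPKM + 1 from the control of each arm (horizontal axis) for the 10 p53 pathway genes, as points with 95% intervals, in 4 comparisons. Filled points passed limma at an adjusted p under 0.05: Gadd45a at 0.65 in H3.1K9M and at 0.73 in shSuv39h2.

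Over the pathway, 1 of the 10 genes, Gadd45a, rose in H3.1K9M and none fell, where limma called 0.313% of all tested genes in this comparison and 0.0229% as higher. Since the 10 were chosen with earlier results known, such shares are set side by side as a description and not as a test. At an unadjusted p under 0.05 there were 4 of the 10, beside 11.2% of tested genes. The median log2 difference of the 10 was 0.256, beside -0.01 over all tested genes, and it was 0.117 without H3.1K9M replicate 1, 0.502 without its replicate 2 and 0.137 with the feeder covariate. Both H3.1K9M libraries were above both of H3.1WT for Mdm2, Cdkn1a, Gadd45a, Zmat3 and Perp, 5 of 10 where 14.6% of tested genes did so, and in 0 of 10 were both below, beside 20.6%. In H3.1K36M 0 of the 10 passed limma's threshold, where 4.84% of genes were called, and 2 had an unadjusted p under 0.05 (20.8% of tested genes). There 7 of the 10 were higher in both libraries (38.2% of tested genes) and 2, Gadd45a and Bbc3, lower (27.6%). The median log2 difference of the 10 in H3.1K36M was 0.19, beside 0.032 over all tested genes. With the feeder covariate 5 of those 7 turned below 0, Trp53 to -0.03, Mdm2 to -0.13, Ccng1 to -0.08, Perp to -0.11 and Phlda3 to -0.13. Bbc3 turned to 0.09, and the median of the 10 was then -0.09. H3.1K36M against H3.1K9M called 1 of 10, Gadd45a, as lower, beside 2.67% of genes as lower and 8.24% in either direction, with 2 at an unadjusted p under 0.05 (23.2%). Trp53 and Zmat3, 2 of 10, were higher there without overlap (31.5%) and Gadd45a, Bbc3 and Perp, 3 of 10, lower (20.5%).

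In the hairpin arm, shSuv39h1 against shNC called 0 of the 10 by limma, with 0 at an unadjusted p under 0.05 (10.6% of tested genes), where 0.145% of genes were called. Bax and Zmat3, 2 of 10, were higher without overlap (26.8% of tested genes) and 0 of 10 lower (12.7%). In shSuv39h2 1 of 10, Gadd45a, rose, beside 5.35% of genes as higher and 10% in either direction, with 3 at an unadjusted p under 0.05 (25.8%). In that comparison 4 of 10, Gadd45a, Bax, Zmat3 and Phlda3, were higher without overlap (29.5%) and 1, Ccng1, lower (21.3%). The median log2 difference of the 10 in shSuv39h2 was 0.177, beside 0.041 over all tested genes. It was -0.016 without shSuv39h2 replicate 1 and 0.227 without its replicate 2. shSuv39h1 against shSuv39h2 called 1 of 10, Gadd45a, beside 2% of genes as lower and 6.56% in either direction, with 2 at an unadjusted p under 0.05 (21.7%). Trp53 and Ccng1, 2 of 10, were higher in shSuv39h1 without overlap (30%), and Gadd45a, Bax, Bbc3, Zmat3 and Phlda3, 5 of 10, lower (28.7%). Between the control lines H3.1WT and shNC limma called 0 of 10, with 0 at an unadjusted p under 0.05 (11.4% of tested genes), where 0.336% of genes were called. Zmat3 was higher in H3.1WT without overlap (23.1% of tested genes) and 3 of 10, Mdm2, Perp and Phlda3, lower (16.3%). Shares of the 10 near those of all genes are no result about the pathway.

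Trp53 mRNA was high in every group. It was at 156 and 185 FPKM in H3.1WT, 169 and 139.8 in H3.1K9M, 199 and 204 in H3.1K36M, 115 and 176 in shNC, 154 and 159 in shSuv39h1 and 106 and 139 in shSuv39h2. Both H3.1K36M libraries were above the other 10, and shSuv39h2 replicate 1 was the lowest. The group means ran from 201 ± 3.62 in H3.1K36M through H3.1WT, shSuv39h1, H3.1K9M and shNC to 123 ± 23.2 in shSuv39h2 (SD, n = 2), and of the neighbours in that order H3.1K36M and H3.1WT did not overlap. H3.1K36M was 0.39 higher than H3.1K9M on the log2 scale (limma adjusted p = 0.265) and shSuv39h1 0.36 higher than shSuv39h2 (0.326), neither past the threshold. Mdm2 was at 67.3 and 63.9 FPKM in H3.1WT, 103 and 68.9 in H3.1K9M and 69.8 and 74.8 in H3.1K36M, and at 83.9 and 73.6 in shNC, 85.0 and 69.9 in shSuv39h1 and 91.5 and 68.6 in shSuv39h2. H3.1K9M replicate 1 stood above all others, and the H3.1K9M difference of 0.36 did not pass (limma adjusted p = 0.511).

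Among the cell cycle genes, Cdkn1a encodes p21, an inhibitor of cyclin-dependent kinases. It was at 54.8 and 67.7 FPKM in H3.1WT, 107 and 68.4 in H3.1K9M, 86.6 and 82.0 in H3.1K36M, 74.7 and 66.3 in shNC, 68.3 and 57.2 in shSuv39h1, and 80.2 and 62.2 in shSuv39h2. H3.1K9M replicate 1 was the highest library and its partner only just exceeded H3.1WT, while both H3.1K36M libraries lay well above H3.1WT. The differences were 0.49 ± 0.204 in H3.1K9M (limma adjusted p = 0.42) and 0.46 in H3.1K36M (0.235), and neither passed. Given the feeder markers' mean as a covariate, they were 0.14 (adjusted p = 0.732) and 0.05 (0.903). Ccng1, cyclin G1, a feedback regulator of p53 through Mdm2, was at 98.1 and 97.3 FPKM in H3.1WT, 127 and 86.2 in H3.1K9M, 111 and 112 in H3.1K36M, 102 and 93.3 in shNC, 112 and 97.5 in shSuv39h1, and 91.5 and 74.5 in shSuv39h2. The shSuv39h2 libraries were below both of shNC and both of shSuv39h1, by 0.34 from the latter (limma adjusted p = 0.272).

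Of the genes of cell death, Bax, which opens the outer mitochondrial membrane, was the steadiest. It was at 197 and 176 FPKM in H3.1WT, 195 and 168 in H3.1K9M, 181 and 175 in H3.1K36M, 181 and 185 in shNC, 186 and 189 in shSuv39h1, and 215 and 224 in shSuv39h2. Both shSuv39h2 libraries were above the other 10, and the difference from shNC was 0.26 (limma adjusted p = 0.0879), which passed without H3.1K9M replicate 1 (0.034) or replicate 2 (0.0343). shSuv39h1 against shSuv39h2 gave a log2 difference of -0.22 (limma adjusted p = 0.168). Perp, a membrane protein of desmosomes and p53-dependent death, was at 13.06 and 12.98 FPKM in H3.1WT, 25.8 and 16.9 in H3.1K9M, 14.6 and 15.4 in H3.1K36M, 15.03 and 15.3 in shNC, 17.3 and 15.2 in shSuv39h1, and 17.7 and 14.8 in shSuv39h2. H3.1K9M replicate 1 was again the highest library, and both H3.1K9M libraries exceeded those of H3.1WT. The difference of 0.65 ± 0.165 was as large as that of Gadd45a and did not pass (limma adjusted p = 0.216), and H3.1K36M was at -0.46 against H3.1K9M (0.13). That last difference was -0.16 without H3.1K9M replicate 1, and it passed without replicate 2, at -0.75 (adjusted p = 0.00767), and with the feeder covariate, at -0.50 (0.0219).

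Bbc3, also known as Puma, encodes a protein that binds and blocks the survival members of the Bcl2 family. It was at 21.6 and 15.5 FPKM in H3.1WT, 17.0 and 23.2 in H3.1K9M, 14.9 and 13.3 in H3.1K36M, 29.0 and 15.3 in shNC, 20.1 and 19.2 in shSuv39h1, and 30.9 and 21.1 in shSuv39h2. Both H3.1K36M libraries were below the other 10, and the 2 libraries of shNC lay farther apart than those of any other group. Zmat3, an RNA-binding zinc finger protein, was at 12.1 and 13.6 FPKM in H3.1WT, 14.5 and 15.3 in H3.1K9M, 15.7 and 16.0 in H3.1K36M, 11.7 and 11.2 in shNC, 12.1 and 13.3 in shSuv39h1, and 14.2 and 13.8 in shSuv39h2. Each of H3.1K9M, H3.1K36M and shSuv39h2 was above its control without overlap, at 0.20, 0.29 and 0.27 on the log2 scale, and none passed (limma adjusted p = 0.422, 0.0969 and 0.0792). Phlda3, an inhibitor of the kinase Akt, was at 38.2 and 38.8 FPKM in H3.1WT, 61.8 and 37.2 in H3.1K9M, 47.3 and 45.2 in H3.1K36M, 41.9 and 40.7 in shNC, 44.4 and 35.3 in shSuv39h1, and 56.7 and 45.0 in shSuv39h2, with H3.1K9M on both sides of its control.

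Ordered by group mean, most neighbouring groups overlapped for these 8 genes. Mdm2 ran from 86.0 ± 24.3 in H3.1K9M through shSuv39h2, shNC, shSuv39h1 and H3.1K36M to 65.6 ± 2.38 in H3.1WT, and the last 2 did not overlap. Cdkn1a ran from 87.9 ± 27.6 in H3.1K9M through H3.1K36M, shSuv39h2, shNC and shSuv39h1 to 61.2 ± 9.13 in H3.1WT, with a gap between H3.1K36M and shSuv39h2. Perp ran from 21.4 ± 6.29 in H3.1K9M through shSuv39h2, shSuv39h1, shNC and H3.1K36M to 13.02 ± 0.0556 in H3.1WT, with a gap before H3.1WT. H3.1WT was thus the lowest group for these 3, and for Phlda3, which ran from 50.9 ± 8.27 in shSuv39h2 through H3.1K9M, H3.1K36M, shNC and shSuv39h1 to 38.5 ± 0.426, with a gap between H3.1K36M and shNC.

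Ccng1 was highest in H3.1K36M at 112 ± 0.839 and lowest in shSuv39h2 at 83.03 ± 12.03, with H3.1K9M, shSuv39h1, H3.1WT and shNC between them and a gap before shSuv39h2. Bax was at 219.6 ± 6.03 in shSuv39h2, and after a gap shSuv39h1, H3.1WT, shNC and H3.1K9M overlapped down to 178 ± 3.71 in H3.1K36M. Bbc3 ran from 26.0 ± 6.94 in shSuv39h2 through shNC, H3.1K9M, shSuv39h1 and H3.1WT to 14.1 ± 1.13 in H3.1K36M, with a gap before H3.1K36M. Zmat3 kept its groups apart most, from 15.9 ± 0.194 in H3.1K36M through H3.1K9M, shSuv39h2, H3.1WT and shSuv39h1 to 11.5 ± 0.30 in shNC, with overlap between H3.1WT and shSuv39h1 alone. All are mean ± SD in FPKM, n = 2.

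The libraries of H3.1K9M disagreed on the rest of the pathway. Replicate 1 was the highest of the 12 libraries for 5 of the 10 genes, Mdm2, Cdkn1a, Ccng1, Perp and Phlda3, at 1.498, 1.57, 1.47, 1.53 and 1.66 times its partner. For Gadd45a and Zmat3 the ratio was 0.968 and 0.946. Without replicate 1 the differences of Perp, Cdkn1a and Mdm2 from H3.1WT were 0.35, 0.16 and 0.07, and those of Ccng1 and Phlda3 turned to -0.18 and -0.05. Without replicate 2 the differences of Perp, Cdkn1a, Mdm2, Ccng1 and Phlda3 were 0.94, 0.81, 0.65, 0.38 and 0.67. That of Gadd45a was 0.67 without replicate 1 and 0.63 without replicate 2. Each of these fits rests on 1 library of H3.1K9M.

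Replicate 1 of H3.1K9M is also the library with the highest sum and mean of the feeder markers. The markers did not all rank it first, and Col3a1, Postn and Dcn, among others, were higher in both H3.1K36M libraries. Of the 28 feeder markers tested, 28 were above H3.1WT in H3.1K9M with a median log2 difference of 0.656, and none was called. In H3.1K36M 28 were above and 3 were called, with a median of 0.763, in shSuv39h1 the median against shNC was -0.42 and none was called, and in shSuv39h2 it was 0.06 with 2 lower by the test. Over the 12 libraries the Pearson correlation of log2 level with the mean of the feeder markers was 0.873 for Cdkn1a, 0.651 for Phlda3, 0.587 for Zmat3 and 0.499 for Ccng1. It was 0.498 for Perp, 0.478 for Trp53, 0.35 for Mdm2, -0.07 for Gadd45a, -0.22 for Bax and -0.53 for Bbc3. These are descriptions over libraries that share their groups and controls. With the feeder mean as a covariate the H3.1K9M differences of Perp, Mdm2 and Phlda3 were 0.39, 0.13 and -0.02 and none passed, and beyond this the part of feeder RNA in these levels was not tested.

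**Figure D3:**
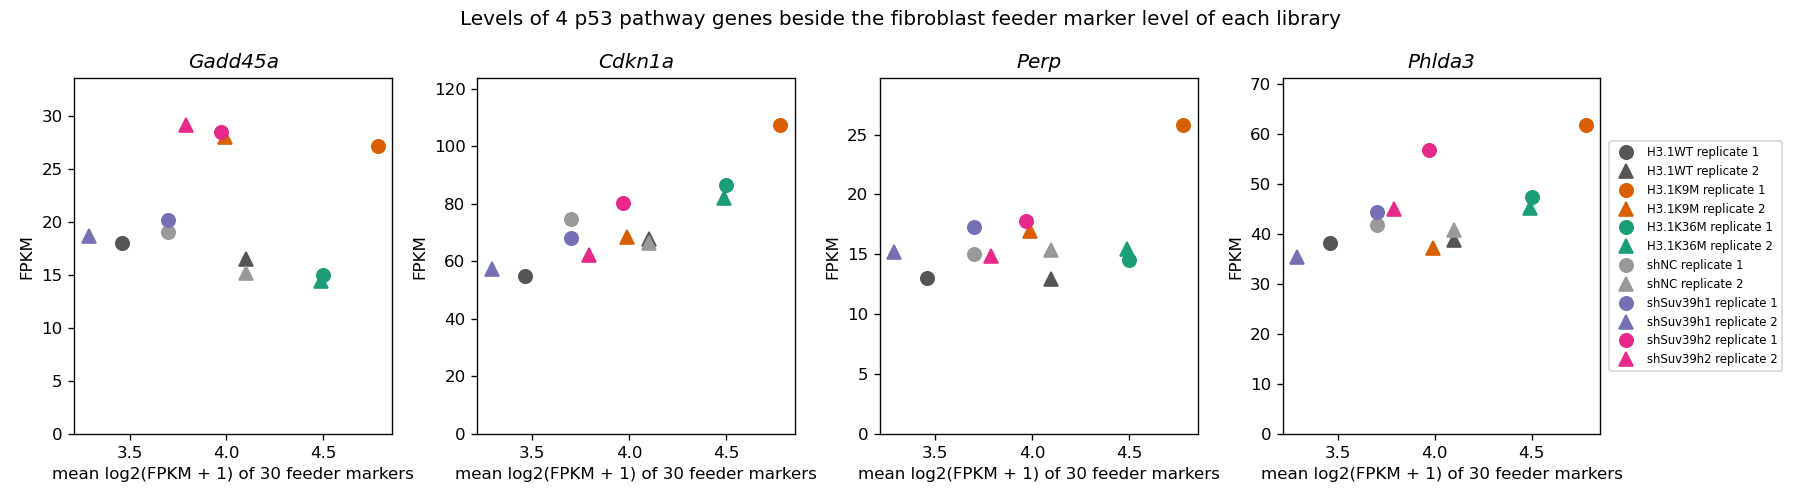
Levels of 4 p53 pathway genes in FPKM (vertical axes) against the mean log2(FPKM + 1) of 30 fibroblast feeder markers (horizontal axes) for Gadd45a, Cdkn1a, Perp and Phlda3, with a point for each of 12 libraries, colour for the group and shape for the replicate. H3.1K9M replicate 1 lies at the right of every panel and is the highest point for Cdkn1a, Perp and Phlda3, and not for Gadd45a.

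Trp53 and Bbc3 ran opposite to each other, a pair singled out among 45 after the values were seen. Over the 12 libraries the Pearson correlation of their log2 levels was -0.98 and Spearman's rho was -0.96, and it was -0.95 without the 2 libraries farthest from the median of Trp53. The library with more Trp53 had less Bbc3 in all 6 groups, and across the 6 differences between replicates the correlation was -0.99. In shNC, for example, Trp53 was at 115 and 176 FPKM where Bbc3 was at 29.0 and 15.3. The pattern held between libraries of 1 group as between groups. Other genes followed each of them about as closely, Hn1 (0.978) and Nploc4 (0.974) for Trp53 and Clk1 (0.972) for Bbc3. The share of all genes with so close a correlation was not counted, and a link between Trp53 and Bbc3 was not tested.

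**Figure D4:**
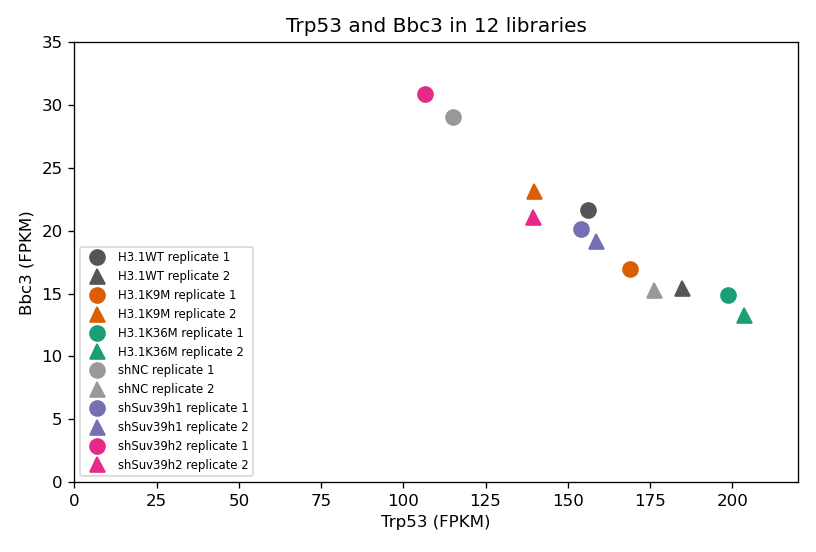
Bbc3 (FPKM, vertical axis) against Trp53 (FPKM, horizontal axis) in the 12 libraries, with colour for the group and shape for the replicate. shSuv39h2 replicate 1 has the least Trp53 (106 FPKM) and the most Bbc3 (30.9), and H3.1K36M replicate 2 the most Trp53 (204) and the least Bbc3 (13.3).

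The genes most like each of the 10 were sought among 10014 tested genes with a mean of at least 3 FPKM, by the Pearson correlation of log2 levels over the 12 libraries. For Gadd45a they were Fbxw4 (0.951), Pitpnm1 (0.942), Ergic1 (0.935), Pold4 (0.932) and Enpp3 (0.927). For Trp53 they were Hn1 (0.978), Nploc4 (0.974) and Phf15 (0.967), and for Bbc3 Clk1 (0.972), Fam162a (0.959) and Rnf19a (0.956). Cdkn1a was most like Nr3c1 (0.978), Adam9 (0.975) and S100a13 (0.963), of which Nr3c1 is the glucocorticoid receptor and Adam9 a membrane protease. Mdm2 was most like Plk2 (0.933), itself a known p53 target, Gla (0.922) and Dnajb9 (0.914). For Ccng1 they were Pomt2 (0.944), Mkl2 (0.935) and Tcn2 (0.928), and for Bax Map3k12 (0.926), Cuedc2 (0.915) and Nfkb1 (0.913). Zmat3 was most like Slc6a6 (0.962), Eif2c2 (0.942) and Ntn1 (0.939), Perp like Numbl (0.921), Carhsp1 (0.896) and Lemd2 (0.889), and Phlda3 like Ash1l (0.959), Dcaf5 (0.941) and Atp6ap1 (0.924). None of the 10 genes was among the genes most like another.

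The wider pathway was followed in 5 lists. Calls named from them between the hairpins and between the mutant histones stand beside 6.56% and 8.24% of all tested genes called in either direction. Of 39 tested p53 targets beyond the 10, 4 rose and none fell in shSuv39h2 against shNC, where 5.35% of all tested genes were called higher and 10% in either direction. The 4 were Psrc1, a microtubule protein (76.7 against 52.8 FPKM, adjusted p = 0.0133), Sesn2, a stress-induced brake on mTORC1 (50.3 against 37.9, 0.0331), Ei24 (49.7 against 37.5, 0.0381) and Gdf15, a secreted stress cytokine (8.06 against 5.18, 0.044). Over the 39 genes the median log2 difference was 0.158, beside 0.041 over all tested genes. The count ranged from 0 to 9 over the alternatives, highest without H3.1K9M replicate 1 and lowest without shSuv39h2 replicate 1. It also fell without shSuv39h2 replicate 2 or shNC replicate 1. Each of these fits left a group with 1 library, and the number of all genes called moved widely between them as well. Psrc1 passed under 20 of 21 alternatives, Sesn2 under 10, Ei24 under 8 and Gdf15 under 7. Limma called none of the 39 in H3.1K9M, with 4 at an unadjusted p under 0.05 (11.2% of all tested genes) and a median of 0.12. It called none in H3.1K36M, with 6 (20.8%) and 0.124, and none in shSuv39h1, with 1 (10.6%) and 0.058. Over the alternatives 0 to 2 of the 39 were called in H3.1K9M, the most when its replicate 2 was left out and 1 library remained. In H3.1K36M the count was 0 to 8. The 8 came under array quality weights, where 2983 of the 13109 tested genes were called. With the feeder covariate 3 were called, beside 562 of all tested genes. Between the hairpins, Gdf15 and Ei24 were lower in shSuv39h1 than in shSuv39h2 (adjusted p = 0.0334 and 0.0419, passing under 12 and 9 of 21 alternatives), and between the mutant histones Gtse1, a p53-binding cell cycle protein, was higher in H3.1K36M (76.0 against 61.4 FPKM, adjusted p = 0.0248, passing under 12 of 21).

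**Figure D5:**
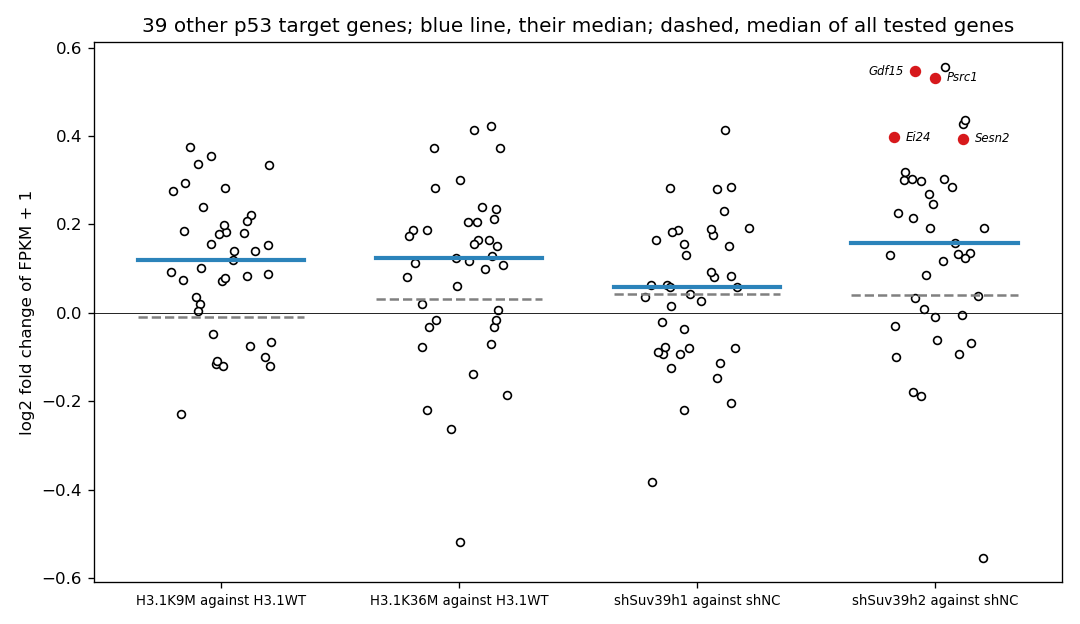
Log2 difference of FPKM + 1 (vertical axis) of 39 other p53 target genes in 4 comparisons, a point for each gene, with blue lines at their median and dashed lines at the median of all tested genes. The 4 filled points, Psrc1, Sesn2, Ei24 and Gdf15, passed limma in shSuv39h2, where the median is 0.158 beside 0.041 for all genes.

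Of 23 tested regulators of p53, 3 rose in shSuv39h2, where 5.35% of all tested genes were called higher. Kat5, the acetyltransferase Tip60, was at 20.7 and 21.9 FPKM against 13.7 and 13.6 in shNC (limma adjusted p = 0.00227). Pml, the organiser of nuclear bodies, was at 54.6 and 50.8 against 36.6 and 37.8 (0.00368), and Daxx, a histone H3.3 chaperone, rose from 21.1 to 28.4 FPKM (0.0338). Kat5 and Pml passed under all 21 alternatives tried and Daxx under 10. Kat5 and Pml were also lower in shSuv39h1 than in shSuv39h2 (adjusted p = 0.0104 and 0.0108). In that comparison neither passed without either shSuv39h1 library or without shSuv39h2 replicate 1, and Kat5 also failed without shSuv39h2 replicate 2, with an adjusted p of at most 0.0995 for Kat5 and 0.104 for Pml. In H3.1K36M, Pml fell to 30.97 and 31.04 FPKM from 38.0 and 40.2 in H3.1WT (adjusted p = 0.0335) and was also below H3.1K9M (0.0171). These passed under 14 and 17 of 21 alternatives, and neither passed without either H3.1K36M library, with an adjusted p of at most 0.23 and 0.136. Limma called none of the 23 in H3.1K9M, with 1 at an unadjusted p under 0.05 (11.2% of all tested genes), and none in shSuv39h1, with 1 (10.6%).

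In the list of 8 Gadd45 family genes and partners, the genes that rose in shSuv39h2 were Gadd45a and Gadd45gip1, a mitochondrial protein that binds the Gadd45 proteins, the latter at 39.2 and 41.5 FPKM against 27.1 and 32.3 in shNC (limma adjusted p = 0.0193), 2 of 8 beside 5.35% of all genes. All 8 were above 0 there, with a median of 0.243, and Gadd45gip1 passed under 17 of 21 alternatives, failing without either shSuv39h2 library or shNC replicate 1 (adjusted p of at most 0.126). In shSuv39h1 against shSuv39h2, Gadd45a, Gadd45gip1 (adjusted p = 0.0442) and Gadd45g, a paralog of Gadd45a, were lower, the last at 10.2 and 9.02 FPKM against 15.8 and 13.7 (0.0485). Gadd45gip1 and Gadd45g passed there under 10 and 7 of 21 alternatives, and none of the 8 passed without either shSuv39h2 library. In H3.1K9M Gadd45a rose and the other 7 were not called, with a list median of -0.06. In H3.1K36M and shSuv39h1 limma called none, with 1 each at an unadjusted p under 0.05 (20.8% and 10.6% of all tested genes).

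Of 17 cyclin-dependent kinase and Cip/Kip genes, 2 rose in H3.1K36M and 2 in shSuv39h2. Limma called 406 of the 13109 tested genes as higher in H3.1K36M and 5.35% in shSuv39h2, with 4.84% and 10% in either direction. Ccnd3, cyclin D3, rose in H3.1K36M (123 against 82.6 FPKM, limma adjusted p = 0.00251), was also above H3.1K9M (0.00217), and passed under all 21 alternatives in both comparisons. Cdk6, a kinase that D cyclins bind, rose in H3.1K36M (8.05 against 4.29, 0.0129), passing under 16 of 21 and failing without H3.1WT replicate 1, without either H3.1K36M library, in a fit on the arm alone and with the feeder covariate (adjusted p of at most 0.125). In shSuv39h2 Ccnd3 (120.3 against 94.8, adjusted p = 0.0168) and Cdk4 (239 against 165, 0.0398) rose, under 17 and 10 of 21, and 0 of 17 passed without either shSuv39h2 library or without shNC replicate 1. Cdk4 was also lower in shSuv39h1 than in shSuv39h2 (0.0409, under 10 of 21). Limma called none of the 17 in H3.1K9M, with 3 at an unadjusted p under 0.05 (11.2% of all tested genes), and none in shSuv39h1, with 1 (10.6%). Of 18 tested genes of the Bcl2 family and the apoptosome, Bcl2l2, a survival protein, rose in shSuv39h2 (6.14 against 4.68, adjusted p = 0.0453), 1 of 18 beside 5.35% of all genes, passing under 4 of 21 alternatives. Bcl2l11, the death protein Bim, was lower in H3.1K36M than in H3.1K9M (5.58 against 7.78, 0.0119), passing under 18 of 21 and failing without either H3.1K36M library (adjusted p of at most 0.111). None of the 18 was called in H3.1K9M, H3.1K36M or shSuv39h1, with 2, 3 and 1 at an unadjusted p under 0.05 (11.2%, 20.8% and 10.6% of all tested genes).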

How the data were processed

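The processed values cover 12 mRNA libraries in 6 groups of 2. The authors deposited FPKM for each gene symbol; the unit was read from the values. TopHat2 2.0.13, Cuffdiff 2.2.1 and mm10 are named, per the submitters' processing notes, with roles, settings and annotation not given in the sources used here. Library kits in the labels are NEBNext Ultra and TruSeq v2. Which kit made which library is not clear, so a difference of kit between groups could not be checked.

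The 13109 genes that reached 1 FPKM in 2 or more libraries entered limma 3.58.1 (R 4.3.3) on log2(FPKM + 1) with an intensity trend, in 1 fit with a mean for each group (6 residual and 3.66 prior degrees of freedom). Differences on this scale understate low genes. p-values are two-sided, Benjamini-Hochberg adjusted over all tested genes, at a threshold of 0.05. Steps were tested on simulated data. The 10 genes and the lists were chosen with earlier results of these data known. Log2 differences are printed where the unadjusted p was under 0.1, and for Gadd45a in shSuv39h1. List genes named are those that passed, up to 4 by smallest p. The fit reported did not pair libraries by replicate number, and whether the numbers mark pairs was not settled. Alternatives were pseudocount 0.1, no filter, a filter of 5 FPKM, other scaling, weights, a block, a feeder covariate, smaller fits and leaving out each library.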

Additional observations from a re-analysis of the deposited data

Results flagged for a closer look

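The response of Gadd45a differed between treatments that share a control. H3.1K36M against H3.1K9M gave a log2 difference of -0.86 (limma adjusted p = 0.0012), with both H3.1K36M libraries below both of H3.1K9M. shSuv39h1 against shSuv39h2 gave -0.55 (adjusted p = 0.018), again without overlap of the libraries. Each was picked out because a direct test of the difference between the 2 responses passed.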

How the results depend on the processing

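Array quality weights gave 1 gene in H3.1K9M against H3.1WT (41 in the fit reported), 2983 in H3.1K36M against H3.1WT (634), 507 in H3.1K36M against H3.1K9M (1080), 860 in shSuv39h2 against shNC (1316) and 2103 in shSuv39h1 against shSuv39h2 (860), with 0, 2 and 2 of the 10 genes in H3.1K9M, in H3.1K36M and between the hairpins. A feeder covariate gave 1983 genes for H3.1K36M against H3.1K9M, 2274 for shSuv39h2 and 180 for H3.1WT against shNC (44), with 0 of the 10 in H3.1K9M and 2 in H3.1K36M against H3.1K9M. A filter of 5 FPKM gave 27 genes in H3.1K9M, 354 in H3.1K36M, 663 in H3.1K36M against H3.1K9M and 29 in H3.1WT against shNC. Fits on an arm alone gave 2, 186, 510, 3, 866 and 348 genes in H3.1K9M, in H3.1K36M, between those, in shSuv39h1 (19), in shSuv39h2 and between the hairpins, with 0 of the 10 in H3.1K9M and 0 between the hairpins, and a fit on the control lines gave 1. With no filter H3.1K9M had 12 genes and 0 of the 10, and with quantile normalization 0 of the 10. shSuv39h1 had 11 genes with a pseudocount of 0.1 and 10 with a replicate block, which changed no count of the 10; the deviations of same-numbered libraries correlated at -0.38 to 0.517, over 0.1 in 4 of 15 pairs of groups. Leaving out each library gave 2 to 695 genes in H3.1K9M, 107 to 1185 in H3.1K36M, 267 to 1424 between those, 0 to 58 in shSuv39h1, 360 to 1998 in shSuv39h2, 76 to 1438 between the hairpins and 7 to 147 between the controls. In H3.1K9M the count was 2 and 4 without H3.1WT replicate 1 and 2, 20 without H3.1K9M replicate 1 and 695 without its replicate 2. Of the 10, it gave 0 to 4 in H3.1K9M, 0 in H3.1K36M, 1 to 2 between those, 0 in shSuv39h1, 1 to 2 in shSuv39h2, 0 to 1 between the hairpins and 0 between the controls. The 19 log2 differences given for the 10 genes kept their sign in all 399 alternatives, and the other 51, between -0.47 and 0.31, changed sign in 65 of 1071, with 1 passing. Most alternatives cannot change a log2 difference, namely another filter, the block, the weights, a smaller fit and leaving out a library of another group. The differences given were also picked by their p-values, except Gadd45a in shSuv39h1. A kept sign was therefore partly set in advance. A group left with 1 library was assumed to vary like the others. The cause of these shifts was not tested. The files give no counts, so depth is approximate.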
